A study of Mus musculus with 2 samples.

Results

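The genes described are 9 members of the bone morphogenetic protein (BMP) pathway, out of 32286 features counted per library: Id1, Id2, Id3, Id4, Bmp4, Bmpr1a, Smad1, Smad5 and Smad6. They were chosen by symbol, and each matched 1 feature in both libraries. The study deposited 2 droplet-based scRNA-seq libraries of mouse cells of the ICR strain, 1 of ESCs grown in serum/LIF on feeder cells (0 h) and 1 of EpiLCs kept for 48 h in N2B27 with activin A, bFGF and KSR on Matrigel. Equal numbers of WT and Cnot8 KO cells were mixed for each library, and the WT cells were marked by tdTomato from ROSA mT/mG. The product of Cnot8 removes poly(A) from mRNAs as part of Ccr4-Not, and the study asked how its loss affects the exit from naïve pluripotency. Barcodes passed with 1000 or more detected genes and no more than 10% of UMIs from mitochondrial genes. A cell was counted as WT with at least 1 tdTomato UMI and 0 UMIs of Ddx3y, Eif2s3y, Kdm5d and Uty, and as KO with no tdTomato UMI and at least 2 UMIs of those 4 Y-linked genes. This gave 435 WT and 2978 KO cells of 11054 ESCs, and 368 WT and 2977 KO cells of 9400 48h-EpiLCs, while 7641 and 6055 cells met neither rule. Of the KO cells, 270 ESCs and 377 48h-EpiLCs lay in clusters that were given the WT line by their share of tdTomato-positive cells, and the deepest of these clusters held 79.2% and 59.2% likely doublets. Both samples are labelled wild type in genotype although their titles name a KO, so the line of a cell rests on the transcripts of this rule alone.

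BMP ligands such as Bmp4 bind pairs of type I and type II receptors, of which Bmpr1a is a type I receptor. The receptor phosphorylates Smad1 and Smad5, which enter the nucleus with Smad4 and activate target genes, among them the Id genes and the inhibitory Smad6. Id proteins lack a DNA-binding domain and hold back basic helix-loop-helix factors by pairing with their E protein partners. In serum/LIF culture, BMP activity from serum and the induction of Id genes are known to help LIF in keeping ESCs undifferentiated, and Bmp4 is made by the cells themselves.

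To show what lies in front of these genes, windows of 250 bases before the RefSeq start sites (GRCm38.p6) were read for 8 of the 9 genes, with Id1 not among the entries. They were searched on both strands for 3 elements. The first was GGCGCC, which reads the same on both strands and is a GC-rich element that BMP-activated SMADs are known to bind. The second was the short SMAD box, CAGAC, whose other strand is written GTCTG. The third was CAGCTG, an E-box of the kind recognised by the partners of Id proteins, which also reads the same on both strands. GGCGCC was found before Id2, Id4, Bmpr1a and 1 of 3 Smad5 starts, against 9.59% of 32851 promoters. CAGAC was found before Id3 and another Smad5 start, against 42.2% of promoters, and CAGCTG before Id2 only, against 13.0%. The matches did not overlap each other. The windows of the 8 genes held 60% to 78.8% GC, against a median of 52.4% over all promoters, and the shares were not adjusted for this. In GENCODE M21 the whole Id3 window lies in an Id3 exon, 161 bases of the Id2 window lie in an Id2 exon, and the windows of Id4, Bmp4 and Smad6 lie outside exons. The stretches of 30 bases around the matches of the Id genes are shown because the results below turn on these transcripts, with the match in capitals and each sequence written on the strand of its gene.
Id2, chr12:25096306-25096335, minus strand: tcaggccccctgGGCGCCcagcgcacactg
Id2, chr12:25096271-25096300, minus strand: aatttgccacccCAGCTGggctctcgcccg
Id3, chr4:136143643-136143672, plus strand: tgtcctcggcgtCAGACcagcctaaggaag
Id3, chr4:136143742-136143771, plus strand: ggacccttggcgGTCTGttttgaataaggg
Id4, chr13:48260956-48260985, plus strand: ctcgggttgcccGGCGCCccgccctcgcca

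The windows of Bmp4 and Smad6 held none of the 3 elements. They are shown whole in lower case. The reason is that Bmp4 had the widest stage difference in WT cells among the members, and Smad6 had stage ratios of opposite sign in the 2 lines.
Bmp4, chr14:46390670-46390919, minus strand: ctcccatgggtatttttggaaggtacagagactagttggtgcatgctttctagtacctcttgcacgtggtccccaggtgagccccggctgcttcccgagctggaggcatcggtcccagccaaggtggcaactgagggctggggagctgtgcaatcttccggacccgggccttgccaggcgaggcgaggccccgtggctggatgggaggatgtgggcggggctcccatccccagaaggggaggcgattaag
Smad6, chr9:64022060-64022309, minus strand: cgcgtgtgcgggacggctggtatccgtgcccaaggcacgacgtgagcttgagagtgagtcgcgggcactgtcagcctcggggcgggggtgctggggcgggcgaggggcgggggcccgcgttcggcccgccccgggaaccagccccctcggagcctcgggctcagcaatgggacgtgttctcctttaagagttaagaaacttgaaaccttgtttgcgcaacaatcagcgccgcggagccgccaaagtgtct
A match of letters describes the window and says nothing on binding in these cells.

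The libraries held 144584246 UMIs over 13184 barcodes (ESCs) and 163771168 UMIs over 12427 barcodes (48h-EpiLCs), and 41 barcodes occurred in both, 26 of them among kept cells. The median cell of the 4 classes had 13151 UMIs (WT ESCs), 13368 (KO ESCs), 15598 (WT 48h-EpiLCs) and 17628 (KO 48h-EpiLCs). All 7 pluripotency markers reached 20 CPM in ESCs, and 7 (WT) and 6 (KO) did so in 48h-EpiLCs. All 5 formative markers reached it in 48h-EpiLCs, and 3 did in ESCs of either line. The formative markers summed to 1195 CPM in WT and 1024 CPM in KO 48h-EpiLCs, against 378 and 390 CPM in ESCs. Fgf5 was at 53.4 CPM in WT and 35.9 CPM in KO 48h-EpiLCs, against 2.76 and 1.29 CPM in ESCs. Cnot8 RNA was not lower in KO cells (log2 ratio of KO over WT 0.74 in ESCs and 0.33 in 48h-EpiLCs), so it gave no check of the KO label. The lines differed in the reporter and in Y-linked transcripts as well as in Cnot8, and these cannot be told apart, nor can stage, medium and library. Three-prime UMIs count captured molecules whatever the length of a transcript, and levels below are UMIs scaled by all UMIs of the class (CPM) with exact 95% Poisson intervals. There was 1 library per stage, so that no difference has a replicate check, no test was run, and all intervals cover counting error only. They take UMIs as independent, so they are too narrow where few cells hold many UMIs of a gene. In sums over cells, fewer cells of a kind and less RNA per cell cannot be told apart. A difference is called past the fold where it reached 1.5-fold, its exact binomial interval left out equality, and the mean of the 2 classes was at least 5 CPM.

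Id1 was the Id gene that differed most between the stages. Id1 (ENSMUSG00000042745, chromosome 2 from 152736251 to 152737410) was at 81.2 CPM in WT ESCs (74.3 to 88.7), 115 CPM in KO ESCs (111 to 118), 12.5 CPM in WT 48h-EpiLCs (9.91 to 15.7) and 5.45 CPM in KO 48h-EpiLCs (4.87 to 6.08). The order was thus KO ESCs, WT ESCs, WT 48h-EpiLCs and KO 48h-EpiLCs, and no neighbours in it had overlapping intervals. Between the stages Id1 was 6.48-fold lower in WT cells (5.09 to 8.33) and 21.0-fold lower in KO cells (18.8 to 23.6). Few cells carried much of what was left at 48 h, since 3 of the WT cells held 34.6% of the 78 Id1 UMIs of their class and 29 of the KO cells held 32.5% of 323. Without these 1% of cells in every class, an alternative chosen after the data were seen, Id1 was at 8.27 CPM in WT and 3.72 CPM in KO 48h-EpiLCs, and the stage difference was 8.87-fold in WT and 28.3-fold in KO cells. In ESCs the top 1% of cells held only 10.6% (WT) and 9.22% (KO) of the Id1 UMIs. The cells were dropped by their own Id1 UMIs, so the wider difference follows from the choice and is no check of the stage difference.

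Id3 differed in another way. Id3 (ENSMUSG00000007872, chromosome 4 from 136143497 to 136145755) was at 34.0 CPM in WT ESCs (29.5 to 38.9), 74.4 CPM in KO ESCs (71.9 to 77.0), 33.8 CPM in WT 48h-EpiLCs (29.4 to 38.7) and 17.7 CPM in KO 48h-EpiLCs (16.7 to 18.8). The WT classes stood side by side, with KO ESCs above and KO 48h-EpiLCs below them. The log2 ratio between the stages was -0.01 in WT cells (-0.29 to 0.27), while in KO cells Id3 was 4.198-fold lower at 48 h (3.91 to 4.50). The KO log2 ratio of -2.07 became -1.78 without the clusters of other cell types, outside its counting interval. Over 13 alternatives it lay between -2.35 and -1.78 and stayed past the fold. The WT value rested on the way WT cells were picked. When whole clusters were given a line by their share of tdTomato-positive cells, Id3 was at 38.4 CPM in WT ESCs and 23.7 CPM in WT 48h-EpiLCs, a log2 ratio of -0.70 that was past the fold, and it was -0.58, not past the fold, when likely doublets were left out as well. Other choices of cells moved it up, to 0.28 in cells thinned to 5000 UMIs, 0.22 without likely doublets and 0.27 without likely doublets and other cell types, none past the fold.

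Id2 and Id4 completed the family. Id2 (ENSMUSG00000020644, chromosome 12 from 25093799 to 25097140) was at 35.7 CPM in WT ESCs (31.2 to 40.8), 28.5 CPM in KO ESCs (26.9 to 30.1), 20.4 CPM in WT 48h-EpiLCs (17.0 to 24.3) and 20.2 CPM in KO 48h-EpiLCs (19.0 to 21.3). Its intervals overlapped between the lines at 48 h and were apart for the other neighbours in this order. Id2 was 1.75-fold lower at 48 h in WT cells (1.40 to 2.20) and 1.41-fold lower in KO cells (1.30 to 1.53), the latter short of the threshold. In thinned KO cells Id2 was past the fold, with a log2 ratio of -0.77. Id4 (ENSMUSG00000021379, chromosome 13 from 48261228 to 48266026) was near the limit of detection, at 2.11, 2.61, 0.80 and 0.57 CPM in WT ESCs, KO ESCs, WT 48h-EpiLCs and KO 48h-EpiLCs, and rested on 13, 115, 5 and 34 UMIs. Id4 overlaps 2 genes of the opposite strand, and it was below the level set for a call in all 4 comparisons.

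Summed over Id1 to Id4, the level was 153 CPM in WT ESCs (143 to 163), 220 CPM in KO ESCs (216 to 225), 67.5 CPM in WT 48h-EpiLCs (61.2 to 74.3) and 43.9 CPM in KO 48h-EpiLCs (42.2 to 45.6). The make-up of this sum differed as well. Id1 gave 53.1% of the Id UMIs in WT ESCs and 52.1% in KO ESCs, but 18.6% in WT and 12.4% in KO 48h-EpiLCs. At 48 h Id3 gave 50% of the sum in WT cells, ahead of Id2 at 30.2%, whereas in KO cells Id2 (45.9%) and Id3 (40.4%) were nearer to each other.

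**Figure D1:**
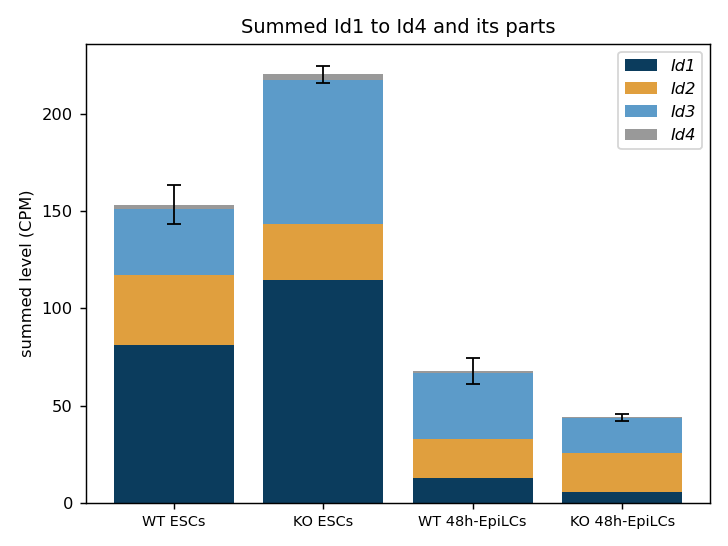
Summed level of Id1 to Id4 (y axis, CPM) in the 4 classes, with the part of each gene in colour and the 95% Poisson interval of the sum as black bars. The sum is 153 and 220 CPM in WT and KO ESCs and 67.5 and 43.9 CPM in WT and KO 48h-EpiLCs, and the Id1 part shrinks from 53.1% to 18.6% in WT cells.

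Bmp4, the ligand of the group, was an ESC transcript in both lines. Bmp4 (ENSMUSG00000021835, chromosome 14 from 46383520 to 46390669) was at 30.5 CPM in WT ESCs (26.3 to 35.2), 42.6 CPM in KO ESCs (40.7 to 44.5), 2.41 CPM in WT 48h-EpiLCs (1.35 to 3.98) and 5.85 CPM in KO 48h-EpiLCs (5.25 to 6.50). All 4 intervals were apart. Bmp4 was 12.7-fold lower at 48 h in WT cells (7.49 to 23.1, from 15 UMIs at 48 h) and 7.27-fold lower in KO cells (6.48 to 8.18). It overlaps Gm15217 and Gm15222 on the opposite strand, and the strand setting of the counting is not given in the sources used here.

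The type I receptor Bmpr1a and the signal-carrying Smad1 went the other way. Bmpr1a (ENSMUSG00000021796, chromosome 14 from 34410734 to 34503341) was at 20.6 CPM in WT ESCs (17.2 to 24.6), 23.8 CPM in KO ESCs (22.4 to 25.3), 32.0 CPM in WT 48h-EpiLCs (27.7 to 36.8) and 32.7 CPM in KO 48h-EpiLCs (31.3 to 34.2). The lines overlapped within each stage. Bmpr1a was 1.55-fold higher at 48 h in WT cells (1.23 to 1.95), just past the threshold, and 1.38-fold higher in KO cells (1.28 to 1.49), just short of it. The log2 ratio of 0.63 in WT cells became 0.06 when each cell was thinned to 5000 UMIs, and it was short of the threshold at 0.51 with whole clusters given a line and at 0.56 in cells of 8000 to 25000 UMIs.

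Smad1 (ENSMUSG00000031681, chromosome 8 from 79338395 to 79399518) was at 6.99 CPM in WT ESCs (5.06 to 9.41), 10.9 CPM in KO ESCs (9.99 to 12.0), 18.3 CPM in WT 48h-EpiLCs (15.1 to 22.0) and 16.5 CPM in KO 48h-EpiLCs (15.5 to 17.6). The lines overlapped at 48 h and were apart in ESCs. Smad1 was 2.62-fold higher at 48 h in WT cells (1.83 to 3.82) and 1.51-fold higher in KO cells (1.35 to 1.68), where it fell short of 1.5-fold in 7 of 13 alternatives that kept the threshold. Smad5, which carries the same signal (ENSMUSG00000021540, chromosome 13 from 56703010 to 56742377), was at 6.82 CPM in WT ESCs (4.92 to 9.22), 10.995 CPM in KO ESCs (10.0 to 12.0), 8.04 CPM in WT 48h-EpiLCs (5.97 to 10.6) and 9.95 CPM in KO 48h-EpiLCs (9.16 to 10.8). Its stage ratios had intervals that included equality in both lines.

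Smad6 is an inhibitor of the pathway that BMP signals induce. Smad6 (ENSMUSG00000036867, chromosome 9 from 63953076 to 64022059) was at 1.62 CPM in WT ESCs (0.78 to 2.99, from 10 UMIs), 6.23 CPM in KO ESCs (5.52 to 7.02), 3.86 CPM in WT 48h-EpiLCs (2.47 to 5.74) and 3.997 CPM in KO 48h-EpiLCs (3.50 to 4.54). The lines overlapped at 48 h and differed in ESCs, where the KO class was 3.84-fold higher (2.06 to 8.09) at a mean level too low for a call. With whole clusters given a line, Smad6 was at 2.72 CPM in WT and 6.58 CPM in KO ESCs, and the log2 ratio of 1.94 became 1.27. In KO cells Smad6 was 1.56-fold lower at 48 h (1.31 to 1.86), and it was not past the fold in thinned cells, with at least 4 Y-linked UMIs per KO cell, or without the 1% of cells highest for it.

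**Figure D2:**
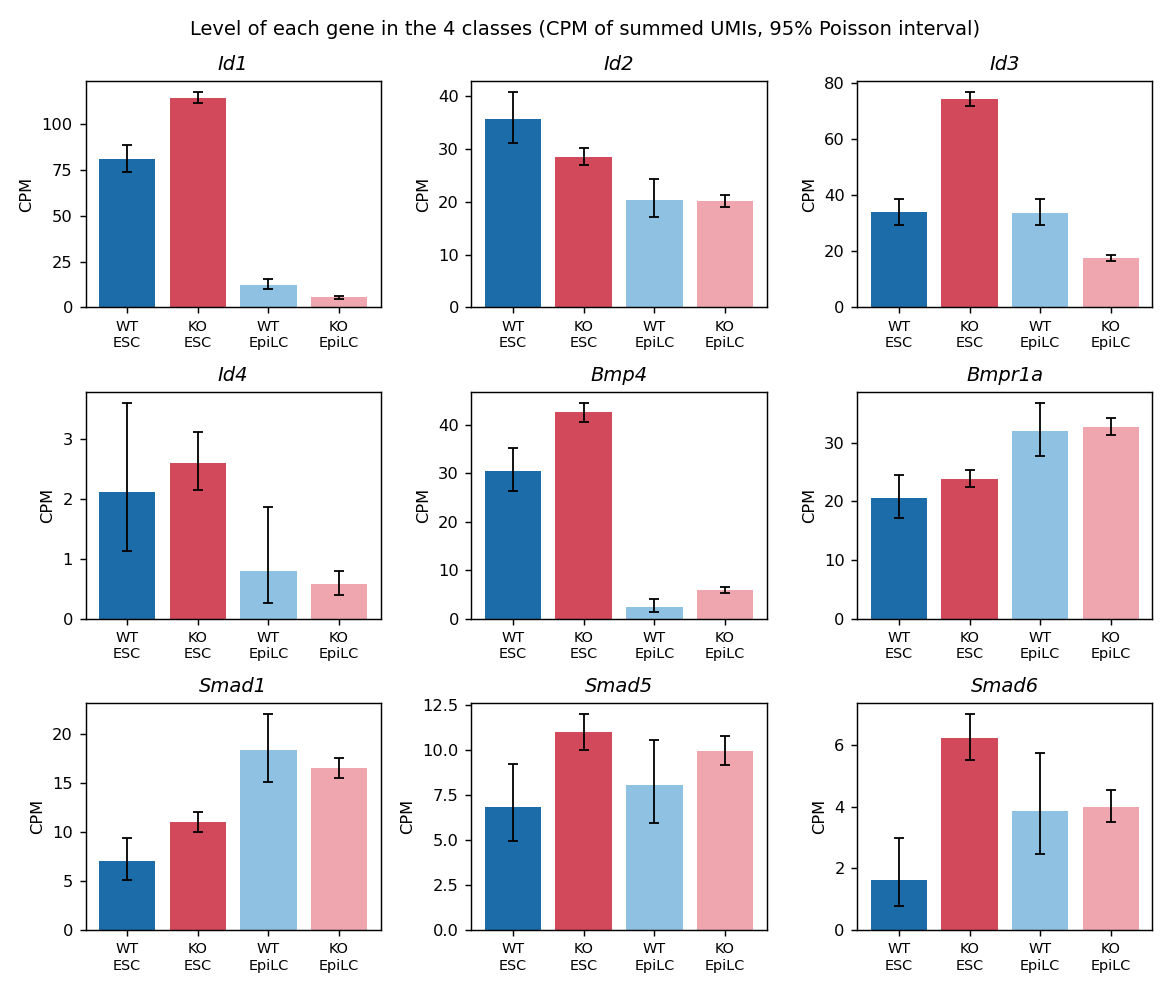
Level of each of the 9 genes (y axis, CPM, a scale of its own for each gene) in WT and KO ESCs and WT and KO 48h-EpiLCs, as bars with 95% Poisson intervals. Id1 and Bmp4 are low in both 48h-EpiLC classes, Bmpr1a and Smad1 are higher there, and Id3 is high in KO ESCs alone, at 74.4 CPM.

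Counted over the group, 2 of 7 genes measured were higher and 3 were lower at 48 h in WT cells, against 14% and 12.1% of all 9242 genes measured. In KO cells 1 of 8 was higher and 4 were lower, against 9.51% and 11.1% of 9478 genes. The higher genes were Bmpr1a and Smad1 in WT and Smad1 in KO cells, and the lower ones were Id1, Id2 and Bmp4 in WT and Id1, Id3, Bmp4 and Smad6 in KO cells. The median log2 ratio of the genes measured was -0.01 in WT and -0.57 in KO cells, against 0.03 and -0.02 over all genes.

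The stage ratios of the lines were then set against each other. The KO ratio minus the WT ratio, on the log2 scale with an interval from counting error, was -1.70 for Id1 (-2.08 to -1.32) and -2.06 for Id3 (-2.36 to -1.77). Both Id genes thus stood further down at 48 h in KO than in WT cells. The difference was -1.89 for Smad6 (-2.98 to -0.80) and -0.80 for Smad1 (-1.33 to -0.27), and 0.80 for Bmp4 (0.02 to 1.58). For Id2, Id4, Bmpr1a and Smad5 the interval included 0. These values rest on the small WT class, and with whole clusters given a line, chosen for this difference after the data were seen, they were smaller: -1.29 for Id1 (-1.47 to -1.11), -1.24 for Id3 (-1.36 to -1.11), -1.19 for Smad6 (-1.53 to -0.85), -0.37 for Smad1 (-0.56 to -0.18) and 0.20 for Bmp4 (-0.04 to 0.43). Those WT clusters included the deepest ones, which were rich in likely doublets. With likely doublets left out as well, the differences were -1.45 for Id1, -1.40 for Id3, -1.41 for Smad6, -0.43 for Smad1 and 0.25 for Bmp4. The Bmp4 interval included 0 in 7 of 10 other choices of cells. With whole clusters the intervals of Id2, at 0.35 (0.21 to 0.48), and Smad5, at -0.41 (-0.63 to -0.19), left out 0. That of Id2 also left out 0 without the other-type clusters, at 0.45 (0.11 to 0.79). It did so without likely doublets as well, at 0.43 (0.08 to 0.78), but was -0.11 (-0.71 to 0.49) in thinned cells.

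**Figure D3:**
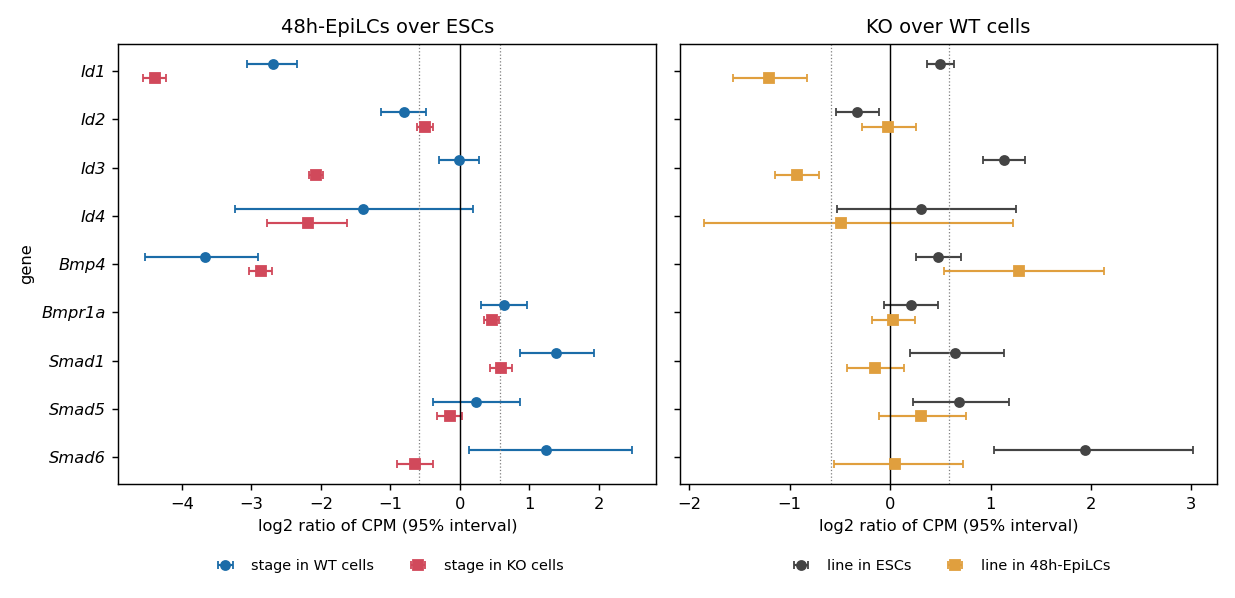
Log2 ratio of CPM (x axis) for each gene between the stages within each line (left) and between the lines within each stage (right), with exact 95% intervals from counting error; dotted lines mark 1.5-fold. Id1 and Id3 lie right of 0 in ESCs and left of 0 in 48h-EpiLCs in the comparison of the lines.

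Between the lines, ESCs and 48h-EpiLCs differed for the same Id genes in opposite directions. In ESCs Id3 was 2.19-fold higher in KO cells (1.90 to 2.53) and Id1 1.41-fold higher (1.29 to 1.55), the latter short of the threshold, which it passed in cells with at least 2000 genes and at most 5% mitochondrial UMIs (log2 ratio of 0.60). In 48h-EpiLCs Id1 was 2.30-fold lower in KO cells (1.77 to 2.96) and Id3 1.90-fold lower (1.63 to 2.21). The Id3 difference at 48 h had a log2 ratio of -0.93, and of -0.49 with whole clusters given a line, which was not past the fold. Id2 was 1.26-fold lower in KO ESCs (1.08 to 1.45) and its log2 ratio at 48 h was -0.02 (-0.28 to 0.26).

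Of the other members, Smad1 was 1.57-fold (1.15 to 2.19) and Smad5 1.61-fold (1.17 to 2.26) higher in KO ESCs, and neither was past the fold with TMM, with size factors or in thinned cells. With whole clusters given a line the log2 ratio of Smad1 fell from 0.65 to 0.20, and to 0.27 without likely doublets, neither past the fold. Bmp4 was 1.39-fold higher in KO ESCs (1.199 to 1.63) and 2.43-fold higher in KO 48h-EpiLCs (1.45 to 4.38), the latter at a mean level under 5 CPM. The Bmp4 difference in ESCs was past the fold in thinned cells and with whole clusters given a line. For Bmpr1a the log2 ratio was 0.20 in ESCs (-0.06 to 0.48) and 0.03 in 48h-EpiLCs (-0.18 to 0.25). In all, 3 of 7 genes measured were higher in KO ESCs (Id3, Smad1 and Smad5) and none was lower, against 13.8% and 5.6% of 9273 genes. At 48 h none of 6 was higher and 2 were lower (Id1 and Id3), against 9.01% and 4.95% of 9381 genes. The median of all genes in ESCs was itself 0.13, and relative to it Id3 was at 1.00, Id1 at 0.37, Smad1 at 0.52 and Smad5 at 0.56 on the log2 scale. With this median, 71.2% of the calls over all genes in ESCs were higher, and 55.3% and 54.5% were with TMM and size factors.

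Cells of other kinds entered the KO class of ESCs and carried Id transcripts. A cluster of 408 cells of the ESC library met 9 of the 10 markers of feeder fibroblasts, with Y-linked transcripts at 75.5 CPM and tdTomato in 1.47% of its cells, and 101 of its cells fell under the KO rule against 3 under the WT rule. In this cluster Id3 was at 349 CPM (333 to 365), Id1 at 154 CPM (144 to 165), Id2 at 85.8 CPM (78.0 to 94.2) and Id4 at 15.8 CPM (12.5 to 19.6). It also held the antagonists Grem1 at 108 CPM and Fst at 271 CPM. The summed level of the 10 feeder markers was 52.9 CPM in KO and 13.97 CPM in WT ESCs, no marker reached 20 CPM in either class, and Lum was at 0 in WT ESCs. Without the clusters of feeder fibroblasts, primitive endoderm and 2-cell-like cells, these sums were 11.5 and 8.75 CPM. Id3 was then at 60.2 CPM in KO and 31.7 CPM in WT ESCs, Id1 at 113 and 80.6 CPM, and Smad6 at 6.16 and 1.35 CPM. The log2 ratio of Id3 between the lines was 0.93 without these clusters, still past the fold. As a measure of free feeder RNA, Col1a2 in the other KO ESCs was at 0.445% of its level in the feeder cluster, and a like share of feeder Id3 amounts to 1.55 CPM.

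In the 2-cell-like clusters, Id1 and Id3 stood above the other cells of both libraries. The 73 ESCs of this kind had Id3 at 221 CPM (191 to 254) against 51.9 CPM in the cells outside the other-type clusters, and Id1 at 193 CPM (165 to 224) against 104 CPM. In 48h-EpiLCs the 63 cells of this kind had Id3 at 48.8 CPM (35.4 to 65.5) against 20.3 CPM, and Id1 at 22.2 CPM (13.5 to 34.2) against 7.63 CPM. The 242 primitive endoderm-like ESCs had Id3 at 69.8 CPM (60.6 to 80.0) and Id1 at 119 CPM (107 to 133), and the ligand Bmp6 at 29.0 CPM (23.2 to 35.8) against 0.62 CPM in the other cells.

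Single cells showed the same order of the classes for Id1. After thinning to 5000 UMIs, Id1 was detected in 28.8% of WT ESCs (24.6% to 33.3%, exact binomial interval), 34.8% of KO ESCs (33.0% to 36.5%), 6.27% of WT 48h-EpiLCs (4.01% to 9.26%) and 2.06% of KO 48h-EpiLCs (1.58% to 2.63%). Without thinning the shares were 50.1%, 58.7%, 11.4% and 7.69%. Id3 was detected in 12.0%, 25.04%, 13.1% and 7.58% of the thinned cells of these classes, and Bmp4 in 14.7%, 17.8%, 1.91% and 2.49%. No cell type that should lack the Id genes was named, so these shares have no background level. Thinning left out 1 WT and 23 KO ESCs and 1 WT and 9 KO 48h-EpiLCs.

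**Figure D4:**
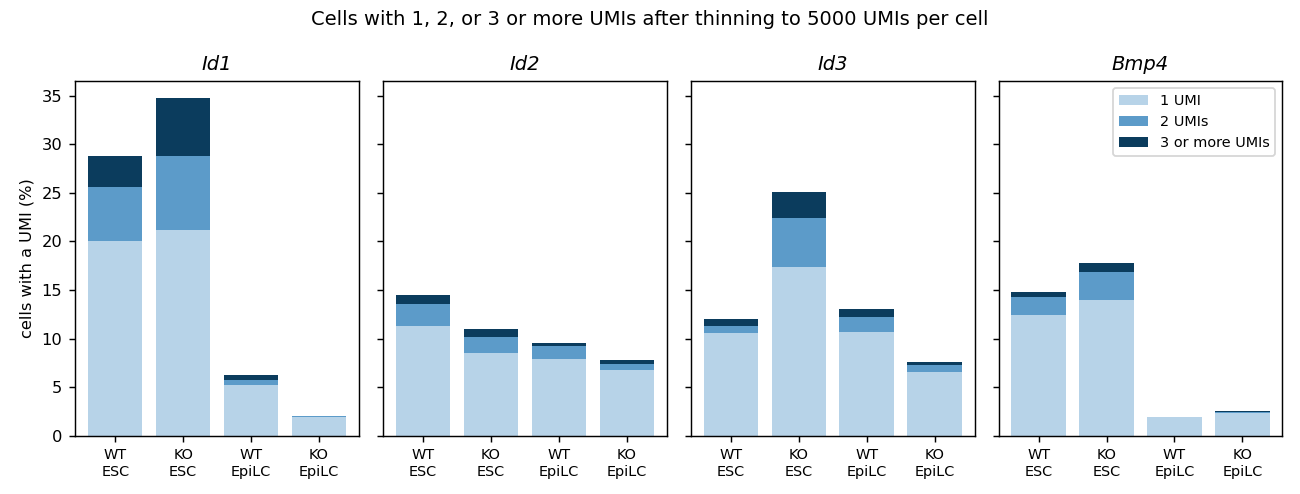
Share of cells (y axis, %) with 1, 2, or 3 or more UMIs of Id1, Id2, Id3 and Bmp4 in the 4 classes after thinning each cell to 5000 UMIs. Id1 is found in 34.8% of KO ESCs and 2.06% of KO 48h-EpiLCs, and Id3 in 25.04% and 7.58%.

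Id genes were also compared within the same cells. In KO ESCs, Id3 was found in 32.8% of the cells with Id1 (29.9% to 35.8%) and in 20.9% of those without (19.1% to 22.8%), and Id2 in 14.995% (12.9% to 17.3%) and 8.87% (7.64% to 10.2%). In WT ESCs the shares of Id3 were 13.6% (8.13% to 20.9%) and 11.3% (8.02% to 15.4%), with overlapping intervals. Those of Id2 in WT ESCs were 18.4% (12.0% to 26.3%) and 12.9% (9.41% to 17.2%), also overlapping. Only 125 WT ESCs had Id1, against 1027 KO ESCs, so the WT intervals are wider. Intervals also overlapped at 48 h, where Id3 was found in 16.4% of KO cells with Id1 (8.15% to 28.1%) and in 7.40% of those without (6.47% to 8.41%). Only 61 of these KO cells had Id1. Without thinning, where cells differ in depth, the Id3 intervals were apart in both classes. The shares were 35.3% (29.0% to 42.1%) and 22.6% (17.2% to 28.7%) in WT ESCs. In KO 48h-EpiLCs they were 30.1% (24.3% to 36.5%) and 20.4% (18.9% to 22.0%). When thinned to 8000 UMIs they overlapped in both classes. The KO ESCs included cells of the feeder and 2-cell-like clusters, which held both Id1 and Id3 at high levels. Without the other-type clusters the shares of Id3 in KO ESCs were 30.1% (27.2% to 33.2%) and 20.0% (18.2% to 22.0%), and those of Id2 13.7% (11.6% to 16.1%) and 8.27% (7.04% to 9.64%). Genes of at least 20 CPM in every class were then compared with Id1, Id2, Id3 and Bmp4. This limit left out Id1, Id3 and Bmp4 themselves, so these were not compared with each other. The gene closest to Id1 over thinned cells, out of 4643 compared, was Id2, at a mean Pearson r of 0.11 over the 4 classes. By the same measure the closest gene was Cd63 for Id2 (r of 0.09), Pcf11 for Id3 (0.08) and Gabarapl2 for Bmp4 (0.10). Each class had the same weight in these means, so the small WT classes counted as much as the KO classes. Pcf11 had r of 0.08 in WT ESCs and 0.22 in WT 48h-EpiLCs, but -0.0008 and 0.02 in the KO classes. Id2 had r of 0.007 with Id1 in KO 48h-EpiLCs, while Cd63 and Gabarapl2 had r of 0.05 or more in every class. All such correlations were weak and share the sparse sampling of each cell.

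Levels across clusters showed how far the classes were even. The 9 genes had been left out of the features used for clustering. Among clusters of at least 150 cells with a median of at least 8000 UMIs, leaving out the deepest cluster of each library (medians of 22038 and 30656 UMIs), Id1 ranged from 61.7 to 94.9 CPM over 4 WT clusters and from 110 to 127 CPM over 5 KO clusters of ESCs, so that the ranges were apart. Id3 ranged from 30.1 to 52.3 CPM and from 42.1 to 119 CPM in these clusters. The KO ESC clusters outside these limits had Id1 below the WT range. It was at 49.1 CPM in 97 cells (median of 3053 UMIs) and 47.9 CPM in 148 cells (median of 5262 UMIs). In 48h-EpiLCs, Id1 ranged from 9.07 to 15.9 CPM over 3 WT clusters and from 3.51 to 12.2 CPM over 7 KO clusters, and Id3 from 22.3 to 27.4 CPM and from 11.8 to 36.0 CPM, with overlap. Bmp4 ranged over WT ESC clusters from 3.91 CPM in a cluster led by Gadd45g, Neurod1 and Hes6 to 37.0 CPM in a cluster led by Cited4 and Calcoco2.

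**Figure D5:**
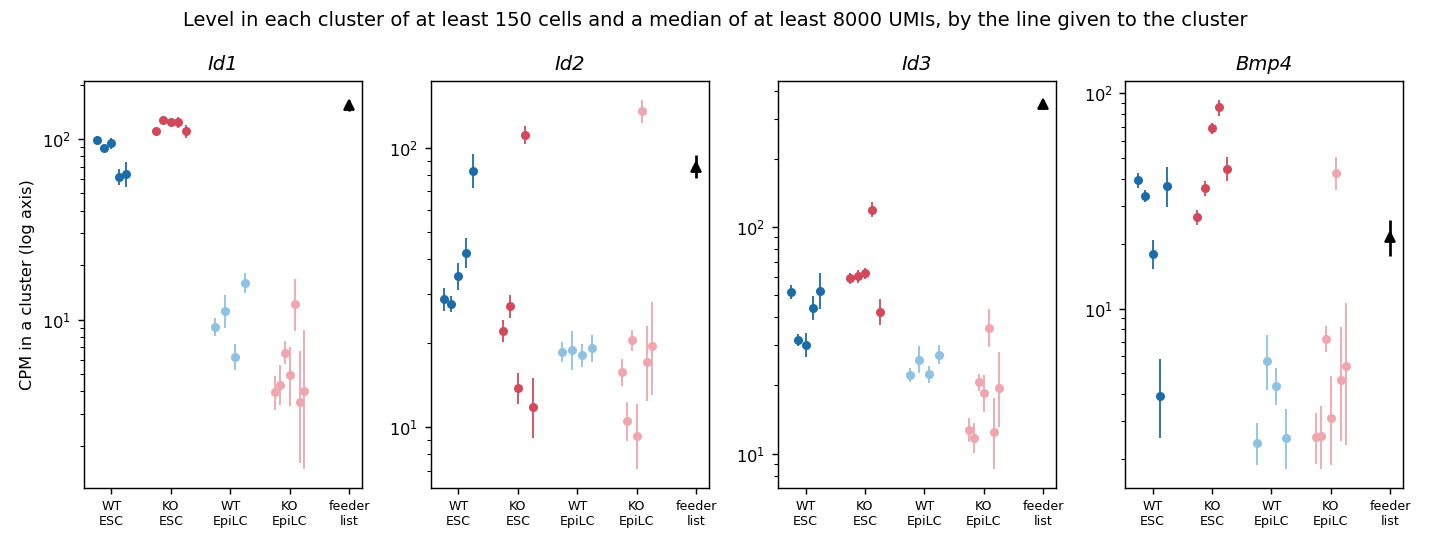
Level of Id1, Id2, Id3 and Bmp4 (y axis, CPM, log axis) in each cluster of at least 150 cells with a median of at least 8000 UMIs, by the line given to the cluster, with 95% Poisson intervals; the triangle is the cluster that met the feeder marker list. For Id2, 1 KO cluster in each library stands above the other KO clusters.

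Among KO clusters Id2 was highest in 1 cluster of each library, a pair singled out after their values were seen. They were picked by their Id2 level, so their Id2 differences follow from the choice. Over WT clusters Id2 ranged from 27.6 to 82.9 CPM in ESCs, highest in the cluster led by Cited4, and from 18.6 to 19.1 CPM in 48h-EpiLCs. In ESCs this cluster was led by Krt8, Krt18, Hand1 and Rhox9, and its 190 KO cells (6.38% of the class) had Id2 at 88.7 CPM against 21.2 CPM in the KO cells of the other KO clusters, 4.19-fold higher. Smad6 was 2.79-fold, Id3 1.90-fold and Bmp4 1.88-fold higher there. In 48h-EpiLCs the cluster was led by Tinagl1, Gpat3, Morc4 and Wnt7b, and its 102 KO cells (3.43% of the class) had Id2 at 145 CPM against 15.8 CPM and Bmp4 at 38.6 CPM against 5.14 CPM, 9.17-fold and 7.50-fold higher. These cells gave 23.5% of the Id2 UMIs and 21.6% of the Bmp4 UMIs of KO 48h-EpiLCs. In them Smad6 was 4.05-fold, Id3 2.93-fold, Id1 2.24-fold and Smad5 1.68-fold higher. Bmpr1a and Smad1 did not differ beyond counting error in either cluster, and the median cell inside and outside had 12417 and 12848 UMIs in the ESC library and 18112 and 16809 UMIs at 48 h.

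The wider pathway was followed with 60 other genes by role. In WT cells 4 of 25 measured were higher at 48 h (Acvr2b, Smad7, Lemd3 and Fst) and 2 lower (Zfp423 and Fstl1), and in KO cells 1 of 23 was higher (Dusp9) and 3 lower (Zfp423, Fst and Tcf4). Over all genes 14% were higher and 12.1% lower in WT cells, and 9.51% and 11.1% in KO cells. The medians of the list were 0.12 and -0.01 on the log2 scale, against 0.03 and -0.02 over all genes. Smad7, an inhibitory SMAD like Smad6, was at 69.4 CPM in WT ESCs (log2 ratio at 48 h 0.81, 0.64 to 0.99) and at 122 CPM in WT 48h-EpiLCs, and at 58.8 and 84.0 CPM in KO cells. Between the lines, Ski was higher and Fstl1 lower in KO ESCs among 23 measured, and Eng was higher and Fst and Fstl1 lower in KO 48h-EpiLCs among 23 measured. The shares over all genes were 13.8% higher and 5.6% lower in ESCs and 9.01% and 4.95% in 48h-EpiLCs. Of 10 other ligands 1 was measured in each comparison, and the other 9 were under 5 CPM on average.

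Fst, follistatin, which binds activin and BMPs outside the cell, had the widest difference of the other pathway genes measured. It was at 28.5 CPM in WT and 6.11 CPM in KO 48h-EpiLCs, a log2 ratio of -2.22 (-2.48 to -1.95). In ESCs it was at 13.6 CPM in WT and 14.2 CPM in KO cells, with feeder-like cells included. Without the other-type clusters it was at 13.8 CPM in WT and 3.26 CPM in KO ESCs, the log2 ratio between the lines became -2.08, and the KO stage ratio turned from -1.22 to 0.91.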

How the data were processed

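The deposited values were counts of UMIs per gene and barcode. By the study's methods they came from Cell Ranger (version 3.0.2, default settings) on an mm10 reference with the tdTomato coding sequence added. They are whole numbers and were not normalised. The submitters' processing notes also name Seurat (version 4). Gene positions came from GENCODE M21 (GRCm38), and promoter windows from RefSeq.

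Members, gene lists and rules were chosen with earlier results of these data known. The line of a cell was read from its own tdTomato and Y-linked UMIs, since both samples carry the genotype label wild type and no label gives the genotype of a cell. UMIs were summed per class and scaled to the class total. CPM carry exact Poisson, ratios exact binomial (conditional on both counts) and shares exact Clopper-Pearson intervals at 95%, and the ratio script was tested on simulated counts. Cells are not replicates, so no p-value is given. Thinning drew 5000 UMIs per cell. Clusters (Leiden, scanpy 1.11.5) left out the members, the pathway list, sex-linked, mitochondrial and ribosomal protein genes. Other-type clusters were named from marker lists. Scrublet's automatic threshold marked 568 of 11054 ESCs and 0 of 9400 48h-EpiLCs, where it had not worked, so the main values keep doublets and an alternative leaves out the top 10% of scores. Pathway genes of at least 2-fold past the threshold were to be described in full, which named Fst, and other pathway genes past the fold are listed with it. The gene most like a member had the highest Pearson r of log values over thinned cells, averaged over the 4 classes, among genes of at least 20 CPM in each. Alternatives changed the scaling (TMM of edgeR 4.0.16, size factors), the filters, the cells or the line rule.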

Additional observations from a re-analysis of the deposited data

Results flagged for a closer look

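Id1 and Id3 differed between the lines in opposite directions in the 2 libraries. The log2 ratio of KO over WT cells was 0.50 in ESCs and -1.20 in 48h-EpiLCs for Id1, and 1.13 and -0.93 for Id3, and each interval left out 0. With 1 library per stage the difference between these ratios was not tested. Smad6 had a log2 ratio of 48h-EpiLCs over ESCs of 1.25 in WT cells, from 10 and 24 UMIs, and of -0.64 in KO cells, and this difference was not tested either. With whole clusters given a line the WT value was 0.46, from 172 and 302 UMIs, and the KO value -0.73. Of these 172 UMIs, 75 came from the deepest WT cluster of ESCs, which held 79.2% likely doublets. With likely doublets left out as well, the WT value was 0.71 and the KO value -0.70.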

How the results depend on the processing

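No paired analysis was possible because each stage had 1 library. No member's log2 ratio that was past the fold changed sign under any alternative tried. Over all member ratios, past the fold or not, 429 of 468 values stayed within the counting interval of the reported one. The members higher at 48 h in WT cells (2) were 1 with a 2-fold threshold, cells of 8000 to 25000 UMIs, thinned cells or whole clusters given a line. The member higher at 48 h in KO cells (1, Smad1) became 0 with a 2-fold threshold, KO cells of at least 1 Y-linked UMI, cells of 8000 to 25000 UMIs, at least 2000 genes and at most 5% mitochondrial UMIs, the top 10% of Scrublet scores left out (alone or with other-type clusters), and whole clusters given a line (with or without likely doublets). Those higher in KO ESCs (3) were 1 with TMM, size factors or a 2-fold threshold. In 48h-EpiLCs 1 member (Bmp4) was higher in KO cells with no filter on low genes, against 0, and those lower (2) were 1 (Id1) with a 2-fold threshold or whole clusters given a line (with or without likely doublets). Fst reversed. Its KO stage ratio was 0.91 without other-type clusters, 0.84 without doublets as well, 0.46 with whole clusters and 0.47 with whole clusters without doublets, and its ratio between the lines in ESCs was -2.08, -2.32, -1.56 and -1.76. The alternatives that combine 2 of these choices, and the one without the 1% of cells highest for a gene, were chosen after seeing the data. Shares of cells moved with depth, 45 of 48 without thinning and 38 of 48 when thinned to 8000 UMIs. The 435 and 368 WT cells, with 10 to 500 UMIs of a gene in ESCs and 5 to 210 in 48h-EpiLCs, limit the precision of the WT values, and with 1 library per stage the spread between libraries is unknown.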
